A study of Homo sapiens with 18 samples.

Results

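The regions described here are accessible sites at the ends of protein-coding genes that gave fewer reads in GFP low than in GFP high Raji cells at 24, 48 and 72 h. Raji cells are a human B-cell line derived from Burkitt lymphoma. Omni-ATAC-seq reads out open chromatin by letting a transposase insert sequencing adapters into exposed DNA. A peak was kept when its centre lay within 1 kb of either end of a RefSeq protein-coding gene, its mean count was at least 20 per column, and its log2 difference, log2 of (GFP low CPM + 0.2) over (GFP high CPM + 0.2), was -0.25 or less at each of the 3 times. CPM is the count scaled to the total of its library. The rule kept 456 of the 13704 gene-end peaks with that mean count (3.33%), out of 71318 peaks in all. They lay at 434 distinct genes. By the same size, 333 gene-end peaks (2.43%) were higher in GFP low at every time.

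The compared groups were GFP low cells at 24, 48 and 72 h and GFP high cells at 24, 48 and 72 h. Each carried the genotype label Smarca4+/+, in a series on degradation of SMARCA4, the BRG1 ATPase of the BAF complex, by means of an auxin-inducible degron. The submitters' labels give neither what GFP reports, nor which GFP level marks depleted cells, nor whether the line is 1 clone, so the groups are named by GFP level alone. The table held 18 columns of 7106939 to 11171849 counts, and those with the same GFP level and time varied no more than a fixed multiple of counting error, so each 3 were summed, although the labels call them replicates 1, 2 and 3. This left 6 libraries of 22908652 to 29790483 counts. Of 8 B-cell markers, 6 had a gene-end peak, and their summed level was 173 to 178 CPM in GFP low and 170 to 179 CPM in GFP high. MS4A1 was the largest part of that sum, at means of 78.4 CPM in GFP low and 79.6 CPM in GFP high. None of 5 epithelial markers had a gene-end peak, and of 6 myeloid markers only ITGAM did.

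BAF complexes use ATP to slide or evict nucleosomes and keep many enhancers of a cell type open. A promoter rich in CpG, the base pair step that is rare elsewhere in mammalian genomes, is often poor in nucleosomes and tends to serve genes used by all cells. Promoters poor in CpG tend to serve genes of particular lineages and depend more on bound factors. A 3′ end of a gene has no promoter of that gene, and an accessible site there can be a distal element or belong to a neighbouring gene.

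The 6 promoter windows below, all under kept peaks, are examples with fewer than 10 CpG, as in 70 of the 85 windows under kept peaks (82.4%). Most kept peaks overlapped no promoter window of their gene. The window of PAX5, a regulator of B-cell identity whose peak was not kept, is set beside them as a single contrast. Each runs 5′ to 3′ on the strand of its gene, 250 bases before to 50 after the annotated start, as RefSeq gives it on GRCh38.p14. Every CpG is in capitals. CD38 codes for an ectoenzyme that makes cyclic ADP-ribose (chr4:15778078-15778377, plus strand), FCRL4 for an Fc receptor-like protein of memory B cells (chr1:157598036-157598335, minus strand) and CD28 for a costimulatory receptor of T cells (chr2:203706389-203706688, plus strand). ITGAM codes for the alpha chain of the integrin Mac-1 (chr16:31259725-31260024, plus strand), IL18RAP for the accessory chain of the interleukin 18 receptor (chr2:102418371-102418670, plus strand) and OR51A7 for an olfactory receptor (chr11:4903533-4903832, plus strand). The PAX5 window lies at chr9:37034219-37034518 on the minus strand.
CD38: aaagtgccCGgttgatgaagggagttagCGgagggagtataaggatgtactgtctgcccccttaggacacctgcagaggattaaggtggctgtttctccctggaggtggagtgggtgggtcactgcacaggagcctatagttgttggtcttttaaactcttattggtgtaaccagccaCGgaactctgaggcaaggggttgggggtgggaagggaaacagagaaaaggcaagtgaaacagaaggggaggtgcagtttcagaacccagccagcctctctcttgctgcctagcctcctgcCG
FCRL4: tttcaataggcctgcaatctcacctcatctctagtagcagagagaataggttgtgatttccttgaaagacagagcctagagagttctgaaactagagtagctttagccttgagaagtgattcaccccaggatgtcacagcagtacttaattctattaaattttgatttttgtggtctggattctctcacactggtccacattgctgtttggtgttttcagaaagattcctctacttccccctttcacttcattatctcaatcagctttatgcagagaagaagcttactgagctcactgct
CD28: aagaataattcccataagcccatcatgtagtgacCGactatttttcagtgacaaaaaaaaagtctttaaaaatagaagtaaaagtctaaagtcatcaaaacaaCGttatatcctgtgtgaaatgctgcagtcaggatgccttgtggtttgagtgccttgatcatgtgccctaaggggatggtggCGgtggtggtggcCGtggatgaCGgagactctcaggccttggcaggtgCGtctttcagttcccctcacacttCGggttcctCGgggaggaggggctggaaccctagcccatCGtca
ITGAM: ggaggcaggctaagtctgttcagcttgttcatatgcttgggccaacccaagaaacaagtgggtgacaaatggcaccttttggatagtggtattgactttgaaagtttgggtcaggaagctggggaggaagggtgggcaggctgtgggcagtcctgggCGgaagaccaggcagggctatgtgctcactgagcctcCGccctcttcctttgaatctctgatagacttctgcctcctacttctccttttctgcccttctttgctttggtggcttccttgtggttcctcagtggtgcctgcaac
IL18RAP: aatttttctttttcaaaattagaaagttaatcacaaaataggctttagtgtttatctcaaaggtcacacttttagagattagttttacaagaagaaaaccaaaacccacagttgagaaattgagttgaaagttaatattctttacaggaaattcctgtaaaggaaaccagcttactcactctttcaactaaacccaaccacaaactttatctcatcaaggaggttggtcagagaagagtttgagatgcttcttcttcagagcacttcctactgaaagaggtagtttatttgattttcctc
OR51A7: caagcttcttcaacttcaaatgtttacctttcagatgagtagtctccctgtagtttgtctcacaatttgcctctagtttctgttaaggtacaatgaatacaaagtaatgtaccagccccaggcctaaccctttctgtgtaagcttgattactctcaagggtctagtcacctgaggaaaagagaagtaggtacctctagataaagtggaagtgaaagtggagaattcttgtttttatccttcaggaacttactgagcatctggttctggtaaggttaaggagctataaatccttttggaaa
PAX5: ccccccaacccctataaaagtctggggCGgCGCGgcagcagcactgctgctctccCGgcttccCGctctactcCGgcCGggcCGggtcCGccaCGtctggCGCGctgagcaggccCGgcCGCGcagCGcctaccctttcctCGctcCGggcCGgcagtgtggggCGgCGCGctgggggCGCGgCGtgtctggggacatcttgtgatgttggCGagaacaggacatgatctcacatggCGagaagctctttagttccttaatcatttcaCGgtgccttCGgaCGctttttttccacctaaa
The 6 windows under kept peaks held 4, 0, 9, 2, 0 and 0 CpG in the order printed, and the PAX5 window held 30. Their GC content was 54%, 41%, 48.3%, 53.3%, 33.3% and 39.7%, against 65% at PAX5.

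At each time the kept peaks were lower by construction, and the sizes that follow describe them without a test, since the same contrast chose them. Where the groups are said not to overlap at a kept peak, the rule itself favoured this. No share of peaks without overlap is given. The kept peaks had median log2 differences of -0.66, -0.55 and -0.56 at 24, 48 and 72 h. The other 13248 gene-end peaks had medians of 0.23, 0.08 and 0.15. The lowest value came at 24 h in 238 of the 456 peaks, and at each later time in 109. The median level was 5.51 CPM in GFP low and 8.84 CPM in GFP high, whereas the other gene-end peaks had 25.7 CPM in GFP low and 23.1 CPM in GFP high. In bulk libraries, fewer cells with an open site and less opening per cell cannot be told apart.

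**Figure D1:**
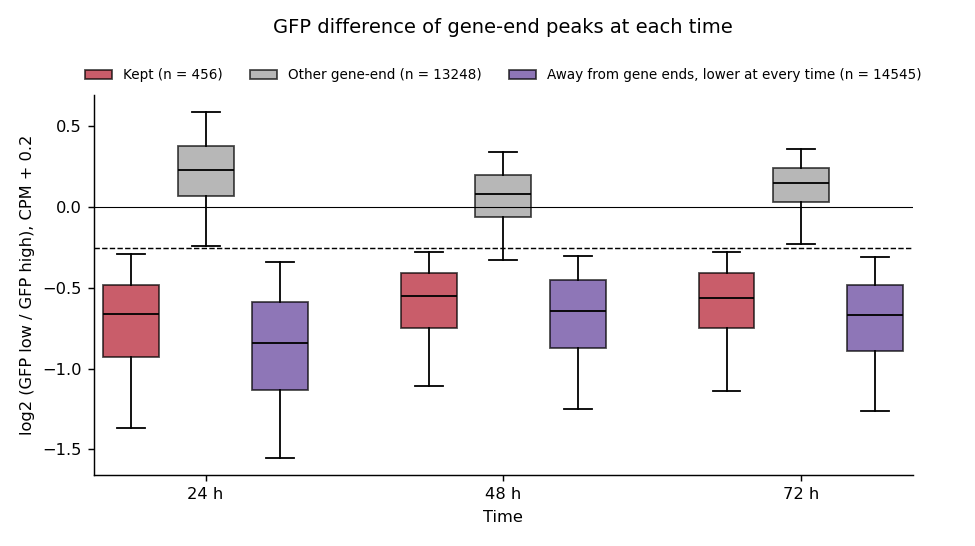
Log2 ratio of GFP low to GFP high CPM (0.2 added) at 24, 48 and 72 h for the kept peaks, the other gene-end peaks and the peaks away from gene ends that met the same count and difference limits. Boxes span the quartiles with the median as a line, whiskers run to the 5th and 95th percentiles, and the dashed line is the limit of -0.25; the kept peaks have medians of -0.66, -0.55 and -0.56, and the other gene-end peaks lie mostly above 0.

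The size of the fall varied within the set. The mean of the 3 log2 differences ran from -1.50 to -0.28, with a median of -0.61. It reached a 2-fold fall in 35 peaks (7.68%), and 6 peaks were at least 2-fold lower at every time. Away from gene ends, 14545 of 56997 peaks (25.5%) met the same limits, with a median mean difference of -0.72, and 17.7% of them reached 2-fold.

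The 20 lowest peaks belonged to genes of many kinds. The lowest lay 840 bases past the 3′ end of PHF24, which codes for a PHD finger protein of neurons, at chr9:34983134-34983634 (hg38, as are the other peak positions). It had 2.31, 3.41 and 2.72 CPM in GFP low at 24, 48 and 72 h, against 7.64, 7.42 and 9.81 CPM in GFP high. Every GFP low value was below every GFP high value. At 24 h its log2 difference was -1.64, with a 95% interval of -2.19 to -1.09. That interval covers counting error widened by the spread between summed columns, and no spread between separate libraries. The edgeR log2 difference of the PHF24 peak over the times was -1.53 ± 0.17 (SE). Of all kept peaks, 386 (84.6%) had such an interval below 0 at 24 h. Only 287 (62.9%) had it below 0 at every time. The rule chose peaks by these same differences, which favours intervals below 0, so both counts are a description and not support. Next came a peak at CASP6, an executioner caspase gene, inside the gene and 561 bases from its start. This peak had 1.74, 1.85 and 1.41 CPM in GFP low and 6.81, 3.46 and 3.93 CPM in GFP high, with the 24 h library of GFP high above the other 2.

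Immune genes stood among the lowest as well. CAMP codes for cathelicidin, an antimicrobial peptide of neutrophils. The peak 633 bases upstream of CAMP had 2.39, 3.37 and 5.77 CPM in GFP low and 7.46, 10.5 and 10.9 CPM in GFP high, and both levels were higher later in time. The peak at the start of IL18RAP had 1.95, 2.24 and 1.28 CPM in GFP low and 6.2, 5.05 and 3.57 CPM in GFP high, with the groups apart. SOAT2, which codes for a cholesterol-esterifying enzyme, had 2 kept peaks, with mean log2 differences of -1.16 and -1.03. Mean differences for the olfactory receptor genes OR51A7 and OR9A4 were -1.20 and -1.17.

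The kept peaks with the highest levels were still moderate. At the top, a peak 893 bases before the 3′ end of B3GAT2, a glucuronyltransferase gene, had 30.6, 34.6 and 36.1 CPM in GFP low and 54.9, 54.7 and 58.4 CPM in GFP high. Its edgeR log2 difference was -0.71 ± 0.08 (SE), and the groups did not overlap. USP15, a deubiquitinase gene, followed at 36, 39.7 and 37.5 CPM in GFP low and 51.5, 47.8 and 45.6 CPM in GFP high. Then came TRIM22, an interferon-induced gene, at 27.3, 30 and 24.9 CPM in GFP low and 42.3, 41.3 and 37.7 CPM in GFP high. In both, all GFP low libraries lay below all GFP high libraries.

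**Figure D2:**
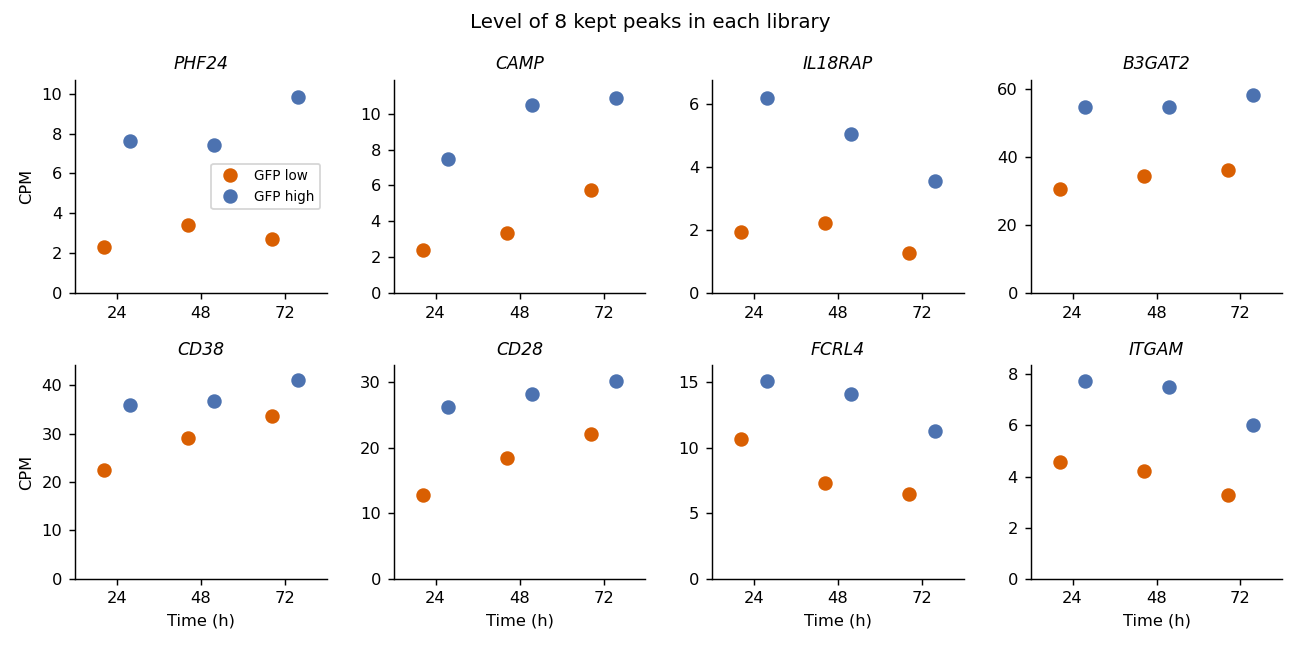
CPM of 8 kept peaks in the 6 libraries, by time (h), with GFP low to the left of GFP high at each time and 1 library per point. For genes with several kept peaks the one nearest the gene end is drawn; FCRL4 and IL18RAP decline with time in GFP high, and CD28 and CAMP increase in both GFP levels.

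CD38 was the gene with the most kept peaks, 3 within 1 kb of its start. The peak centred 13 bases upstream of the start, over the promoter window printed above, had 22.4, 29.2 and 33.6 CPM in GFP low and 35.9, 36.8 and 41.1 CPM in GFP high. The peak 891 bases upstream had 14.1, 19.8 and 20 CPM in GFP low and 26, 27.7 and 30.6 CPM in GFP high. Inside the gene, 764 bases from the start, the third had 23.6, 26.2 and 26.6 CPM in GFP low and 34.8, 33 and 34.4 CPM in GFP high. The groups did not overlap in any of the 3, and all had their largest gap at 24 h, with log2 differences of -0.68, -0.88 and -0.56 there.

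A further 20 genes had 2 kept peaks each. HAVCR2, which codes for the inhibitory receptor TIM-3, had the higher of its pair at 14, 16.2 and 11 CPM in GFP low and 30.6, 26.4 and 24.4 CPM in GFP high. Its other peak averaged 6.47 ± 0.726 CPM in GFP low and 10.7 ± 1.88 CPM in GFP high (SD over the 3 times, n = 3). Pairs also lay at CD247, the T-cell receptor zeta chain gene, at ITGAL, the LFA-1 alpha chain gene, and at KLRC1, the NKG2A gene of killer cells. MS4A7, LGMN and LFNG, a fringe glycosyltransferase of Notch, were 3 more of these genes. At LFNG 1 peak lay at each end of the gene, with mean log2 differences of -0.61 near the start and -0.66 past the 3′ end.

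Near the limit, the highest log2 difference over the times was -0.2506 at SLC25A23, -0.2511 at EML4, -0.2513 at ORAI3 and -0.2514 at SPI1, which were kept. It was -0.2487 at ARHGAP26, -0.2477 at MAPK3, -0.2471 at KIF3A and -0.2459 at TONSL, which were not. Their mean differences overlapped, at -0.42 to -0.36 for those 4 inside and -0.46 to -0.34 for those 4 outside. The narrowest spread over the times was at KCNJ2, a potassium channel gene, with -0.28 at all 3 times. The widest was at NLRP2B, with -1.79, -0.53 and -0.67, and then at H2AL3, with -1.61, -0.50 and -0.98.

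Weak peaks made up most of the set. Of the gene-end peaks in the lowest decile of mean count, 218 of 1371 (15.9%) were kept, in the next decile 109 (7.96%), and in decile 3 it was 54 (3.94%). Only 2 of 1370 were kept in decile 8, and 0 in deciles 9 and 10. The median difference of all gene-end peaks also shifted with level, at -0.07 in the lowest decile and 0.19 in the highest. The mean count of the kept peaks ran from 20.6 to 400 per column, with a median of 64.3.

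The kept peaks lay at both ends of genes. The strand of the gene was known for 352 kept peaks. Of these, 202 (57.4%) were nearer to the start of the gene and 150 (42.6%) to its 3′ end, against 91.6% and 8.4% of the other gene-end peaks. Put the other way, 150 of 1077 peaks at 3′ ends (13.9%) and 202 of 10312 at starts (1.96%) were kept. Peaks at 3′ ends were weaker, with medians in GFP high of 7.8 CPM among kept and 8.19 CPM among other peaks, beside 9.39 and 25.7 CPM at starts. Within the lowest 2 deciles of level, 46.5% of the kept peaks and 30.4% of the others lay at 3′ ends.

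Around gene starts, the share kept varied with distance. It was 1.29% within 250 bases upstream, 1.84% within 250 bases downstream and 1.28% from 250 to 500 bases downstream. From 750 to 1000 bases it was 6.72% upstream (18 of 268) and 3.25% downstream (21 of 647). Kept peaks had a median distance of 481 bases to the nearer gene end, against 194 bases for the others. The share inside genes was 42.8%, against 42.3%, and the share within 1 kb of another gene as well was 8.11%, against 17.9%. These gaps were smaller among weak peaks. Within the lowest 2 deciles of level the median distance was 508 bases for kept and 453 bases for other peaks. For those at starts, the median distance from the start was 456 bases for kept and 480 bases for other peaks. The share near another gene was 8.26%, against 13.3%. No test was made of these shares.

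**Figure D3:**
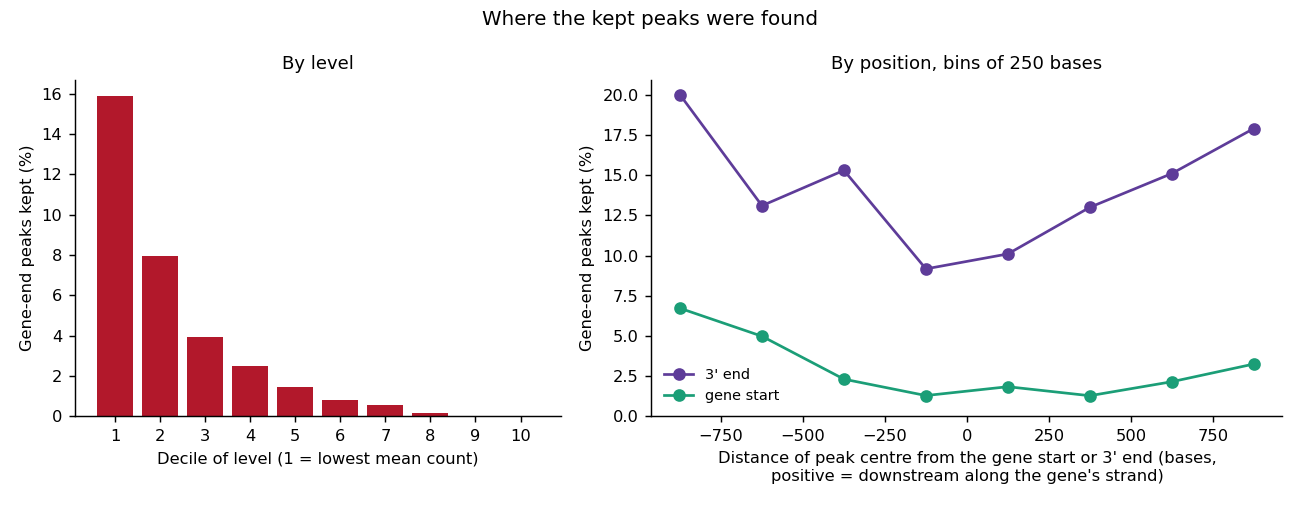
Percentage of gene-end peaks kept, left by decile of mean count and right by distance of the peak centre from the gene start or 3′ end in bins of 250 bases. The share is 15.9% in the lowest decile and 0% in the 2 highest, and it is higher at 3′ ends than at starts in every bin.

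Some kept peaks stood close to a gene-end peak that was not kept. Of the 456, 114 (25%) had such a peak within 2 kb. Those 124 neighbours had a median mean difference of 0.09 and lay above 0 in 78 cases, with a median level of 18.7 CPM in GFP low and 17.8 CPM in GFP high. The following examples were chosen after their values were seen. At SPTY2D1, a histone chaperone gene, the kept peak inside the gene had 6.91, 7.88 and 6.91 CPM in GFP low and 14.6, 14.1 and 11.1 CPM in GFP high. Its neighbour 1016 bases away had 86.5, 90 and 87.6 CPM in GFP low and 77.2, 74.2 and 71.9 CPM in GFP high, so that the 2 peaks went in opposite directions without overlap of the groups.

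RCAN3, a calcineurin regulator gene, showed the same arrangement. The kept peak 916 bases upstream had 4.41, 3.91 and 6.18 CPM in GFP low and 6.02, 6.64 and 8.75 CPM in GFP high, and here the groups overlapped. The peak 1455 bases away from it had 40, 31.5 and 36.7 CPM in GFP low and 23.6, 22.5 and 26.9 CPM in GFP high. At CD72, which codes for an inhibitory coreceptor of B cells, the kept peak 688 bases upstream averaged 10.3 ± 0.328 CPM in GFP low and 15.7 ± 0.479 CPM in GFP high (SD over the 3 times, n = 3). The peak 676 bases from it had 38.2, 37.2 and 39.5 CPM in GFP low and 31.9, 35.5 and 34.4 CPM in GFP high. KLHL14 gave mean log2 differences of -0.79 and 0.21 in peaks 1166 bases apart.

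Other sites of the same genes were examined by the same limits. Of 872 further peaks inside the genes and away from their ends, 263 (30.2%) met the limits for a fall at every time, against 25.3% of all such peaks. Outside the genes but within 50 kb, 162 of 462 (35.1%) did, against 23.1%. Their median mean differences were -0.18 and -0.20, against -0.09 and -0.01. The other gene-end peaks of these genes, 240 in number, had a median of 0.12, against 0.16 for all gene-end peaks not kept. These values come from the contrast that chose the set and are a description.

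Promoters under the kept peaks were poor in CpG. Of the 456, 85 overlapped a promoter window of their gene in the RefSeq table. Those 85 windows had a median GC content of 53.3% and a median of 4 CpG, and 70 of them (82.4%) held fewer than 10 CpG. Windows under the other gene-end peaks, 6628 in number, had medians of 66% GC and 28 CpG, and 5.36% held fewer than 10. In the whole table of 21987 windows of protein-coding genes the medians were 62.3% GC and 21 CpG, and 30% held fewer than 10.

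By CpG class, 44 of 189 peaks over windows with 0 to 4 CpG were kept (23.3%) and 26 of 237 with 5 to 9 (11%). Of those with 10 to 19 CpG 9 of 1068 were kept (0.843%), with 20 to 29 it was 2 of 2408 (0.0831%), and with 30 or more 4 of 2923 (0.137%). Peaks over CpG-poor windows were also weaker, at medians of 12.6 CPM in GFP low and 13.3 CPM in GFP high for windows under 10 CpG, beside 37.3 CPM in GFP low and 32 CPM in GFP high for the rest. Within the lowest 2 deciles of level the shares were 30.8%, 18.3%, 5.88%, 0.787% and 1.43% in the same order of class. The KCNJ2 window held 39 CpG, and its peak had the smallest mean fall of the set. SLC25A23 and ORAI3, with 20 and 17 CpG, lay between the median of 4 for windows under kept peaks and that of 28 under the others.

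**Figure D4:**
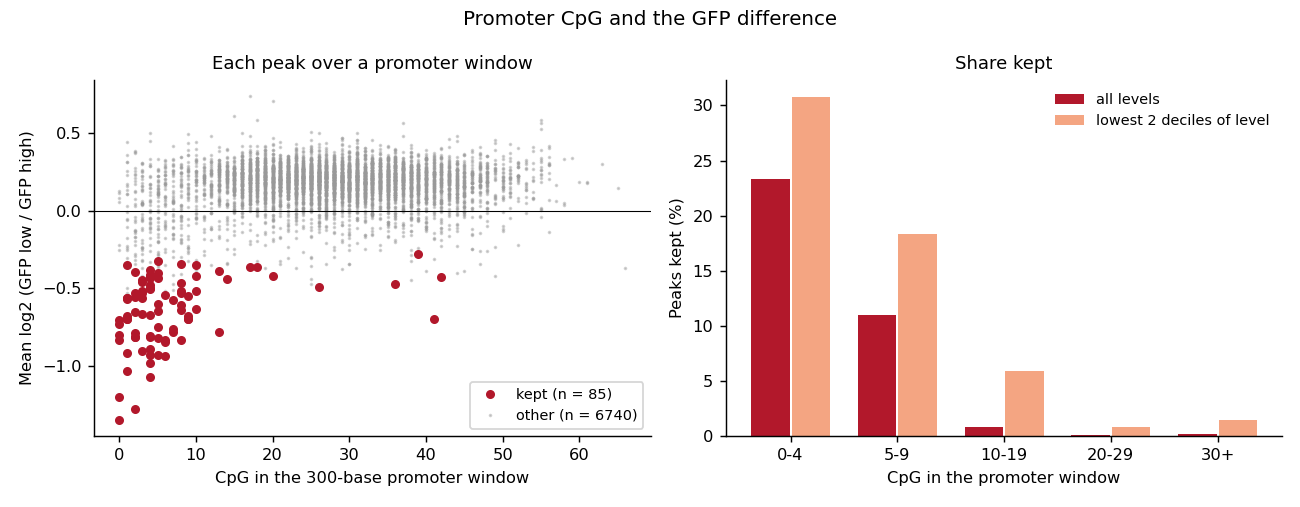
Left, mean log2 ratio of GFP low to GFP high over the 3 times against the number of CpG in the 300-base promoter window for each gene-end peak that overlaps one. Right, percentage of those peaks kept by CpG class, for all levels and for the lowest 2 deciles of level; kept peaks gather below 10 CpG, where 23.3% and 11% are kept, against under 1% in the classes from 10 CpG up at all levels.

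Short motifs were counted on both strands of these windows, 15 in all, with N for any base. The PU.1 or SPIB motif GAGGAAGT was in 14 of 85 windows under kept peaks (16.5%), against 2.34% of the windows under other gene-end peaks and 2.65% of all windows. It shares GGAAGT with the ETS core CCGGAAGT, which was in 0 of 85, against 10.3% and 5.33%, and among windows with fewer than 10 CpG in 0 of 70 kept and 1.69% of other windows. The AP-1 motif TGANTCA was in 15.3%, against 3.33% and 6.16%, the RUNX motif TGTGGT in 28.2%, against 8.8% and 11.3%, and the E-box CANNTG in 85.9%, against 57.9% and 65.1%. Among windows with fewer than 10 CpG alone, the PU.1 or SPIB motif was in 14.3% of 70 kept and 5.92% of 355 other windows. There the AP-1 motif was in 17.1% and 9.01%, the RUNX motif in 31.4% and 24.2%, and the E-box in 88.6% and 78.6%.

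The GC box GGGCGG was in 22.4% of windows under kept peaks, against 74.9% under the others and 56.3% of all, and among windows with fewer than 10 CpG in 12.9% of kept and 19.2% of other windows. The NRF1 motif GCGCATGC and the YY1 motif AAGATGGC were in 0 of 85, against 6.74% and 7% under the others and 3.68% and 3.54% of all. Among windows with fewer than 10 CpG these 2 were in 0 of 70 kept and in 0.563% and 1.69% of other windows. The TATA box TATAAA was in 14.1%, against 4.63% and 9.51%, but among windows with fewer than 10 CpG it was in 17.1% of kept and 17.7% of other windows. Octamer (ATGCAAAT) shares were 5.88%, 1.28% and 1.64%, and among CpG-poor windows 5.71% and 6.2%. The NF-kB motif GGGANTTTC was in 2.35%, 1.27% and 1.19%, and the cAMP response element TGACGTCA in 1.18%, 3.76% and 2.25%. Among CpG-poor windows the shares were 2.86% and 2.54% for NF-kB and 1.43% and 1.41% for the cAMP response element. The other 3, for IRF (GAAANNGAA), EBF (CCCNNGGG) and the CCAAT box (CCAAT), were in 9.41%, 12.9% and 29.4% of windows under kept peaks, against 6.14%, 22.4% and 38.5% under the others and 7.09%, 21.7% and 34.7% of all. Among CpG-poor windows the IRF motif was in 11.4% of kept and 17.7% of other windows, the opposite order. There the EBF motif was in 7.14% and 10.1% and the CCAAT box in 31.4% and 43.7%. A match of these letters is not evidence of binding. Of the printed windows, CD38 held the E-box, CCAAT box and IRF motif, and FCRL4 the AP-1 and RUNX motifs. CD28 held the E-box and RUNX motif, ITGAM the E-box, GC box and RUNX motif, and IL18RAP the E-box, RUNX and IRF motifs. OR51A7 held the E-box and TATA box. The PAX5 window, under a peak that was not kept, held the E-box, GC box and TATA box.

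Gene lists are given as the number of gene-end peaks kept of those measured, to be read against 3.33% of all gene-end peaks, and they overlap in a few genes. That share itself fell with level, from 15.9% in the lowest decile to 0 in the highest, and no list was matched for level. Of 25 gene-end peaks of B-cell surface and coreceptor genes, 7 were kept (28%), and the list had a median mean difference of -0.19 over all 25. The members kept were FCRL3, FCRL4, FCRLA, LY9, CD72, CD52 and TNFRSF17. The FCRL4 peak, at the start of the gene, had 10.7, 7.35 and 6.51 CPM in GFP low and 15.1, 14.1 and 11.3 CPM in GFP high. All GFP low values lay below all GFP high values. LY9, a receptor of the SLAM family, had 16, 12.3 and 12 CPM in GFP low and 22, 19.8 and 21.3 CPM in GFP high.

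Germinal centre and plasma cell genes were represented mainly by CD38. Of 51 germinal centre peaks 4 were kept (7.84%), the 3 of CD38 and 1 of LMO2, a transcriptional adaptor gene, at 17.8, 19.2 and 20.4 CPM in GFP low and 29.4, 29.4 and 31 CPM in GFP high. Of 19 plasma cell peaks 5 were kept (26.3%), at CD38, MZB1, a chaperone of antibody assembly, and TNFRSF17, the BCMA receptor. Memory B-cell genes gave 2 of 23 (8.7%), FCRL4 and PDCD1LG2, a ligand of the PD-1 receptor. Over all their peaks, the germinal centre, plasma cell and memory lists had median mean differences of 0.07, 0.06 and 0.03.

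B-cell transcription factors and signalling genes gave few members. Of 33 peaks of B-cell identity regulators 1 was kept (3.03%), that of SPI1, the PU.1 gene, at 12.9, 12.5 and 12.3 CPM in GFP low and 15.5, 15.4 and 17.9 CPM in GFP high. The lists for NF-kB and TNF signalling, for cytokine receptors and JAK-STAT, and for small GTPase regulators gave 1 of 41 (2.44%), 2 of 46 (4.35%) and 3 of 52 (5.77%). Their members were TRAF3IP3, then CXCL16 and IL2RA, then DOCK10, RASAL3 and TBC1D10C. The marker peaks of MS4A1 and PAX5 gave mean differences of -0.02 and 0.09. Those of CD79A, CD79B and CD22 gave -0.01, 0.09 and 0.07. CD37 gave -0.39, at 8.75, 6 and 6.51 CPM in GFP low and 9.04, 8.64 and 9.97 CPM in GFP high, and was not kept.

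Genes known from other blood lineages were among the members. Of 16 peaks of T-cell and NK-cell genes 6 were kept (37.5%), at CD2, CD28, CD3D, CD3E and CD247. The CD28 peak, over its start, had 12.7, 18.4 and 22 CPM in GFP low and 26.2, 28.1 and 30.1 CPM in GFP high, with the groups apart. A peak past the 3′ end of CD3D had 3.33, 3.23 and 3.89 CPM in GFP low and 7.12, 5.19 and 6.16 CPM in GFP high. Of 7 T-cell markers 4 had a gene-end peak, and their summed level ran from 53.8 to 64.5 CPM in GFP low and from 75 to 78.6 CPM in GFP high. CD3G, CD5 and LCK had none, and the strongest peak of CD3E, at 37.2 CPM in GFP low and 39 CPM in GFP high, was not kept. The peaks of CD2, CD3D and CD28 in that sum were kept, so the rule itself favoured the gap between the GFP levels. The part of other cells in these peaks was not tested.

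Myeloid genes gave 5 of 19 peaks (26.3%), at ITGAM, FCGR2A, CLEC7A, S100A4 and SPI1. ITGAM had 4.56, 4.23 and 3.29 CPM in GFP low and 7.73, 7.52 and 6 CPM in GFP high over the window printed above. No other myeloid marker of the 6 had a gene-end peak, CD14, CSF1R, LYZ and MPO included. CLEC7A, the gene of the fungal receptor dectin-1, had 10.9, 9.41 and 10.8 CPM in GFP low and 15.9, 15.7 and 15.6 CPM in GFP high, and the groups did not overlap.

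Interferon response and antigen presentation genes gave 6 of 54 (11.1%), at ISG20, LGMN, TRIM22, IRF2 and OAS2. The ISG20 peak, past the 3′ end of this exonuclease gene, had 7.05, 9.09 and 9.13 CPM in GFP low and 14.5, 14.3 and 17 CPM in GFP high. LGMN, a lysosomal protease gene, had 2 kept peaks, at mean differences of -0.73 and -0.41. Migration, adhesion and integrin genes gave 4 of 39 (10.3%), at ITGAL, ITGAM and SIGLEC10. RGS and GPCR signalling genes gave 3 of 38 (7.89%), led by GPR174, a lysophosphatidylserine receptor gene, at 3.76, 2.63 and 1.68 CPM in GFP low and 5.85, 5.39 and 4.66 CPM in GFP high. Neuronal genes and ion channels gave 2 of 31 (6.45%). The median mean differences of these lists over all their peaks were 0.02, -0.06, 0.06 and 0.04, in the order given.

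Other lists gave few members or none. Of 85 peaks at cytosolic ribosomal protein genes, 68 at replication-dependent histone genes, 38 at housekeeping genes and 12 at epithelial, stromal and endothelial genes, 0 were kept. The median mean differences of these lists were 0.21, 0.16, 0.17 and 0.12. Their median levels in GFP high were 21.4, 28.5, 33.5 and 15.1 CPM, above the 8.84 CPM of the kept peaks. Few gene-end peaks of such levels were kept, so the counts of 0 are not read as a trait of these genes. Cell cycle and DNA replication genes gave 1 of 65 (1.54%), CDT1, a replication licensing factor gene. BAF and Polycomb subunit genes gave 1 of 73 (1.37%), PHF19, which codes for an accessory protein of the PRC2 complex. Its peak had 3.98, 5.36 and 6.41 CPM in GFP low and 8.21, 8.24 and 11.5 CPM in GFP high, with the groups apart.

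Gene families, grouped by symbol after the members were seen, ranged as widely. Olfactory receptors gave 5 of 19 peaks (26.3%), CLEC lectins 4 of 13, KLR receptors 2 of 8 and MS4A genes 3 of 6. Peaks of these families were weak, with median levels in GFP high of 9.99, 7.35, 7.14 and 10.3 CPM in that order. The other gene-end peaks had 23.1 CPM. GPR genes gave 6 of 37 and interleukin and interleukin receptor genes 5 of 32. Zinc finger genes named ZNF gave 6 of 412 (1.46%) and solute carriers 4 of 255 (1.57%). Genes of mitochondrial ribosomal proteins gave 0 of 90.

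The change with time over both GFP levels was not used by the rule and was tested. Between 72 h and 24 h, over both GFP levels, 11 kept peaks were called higher and 12 lower at 72 h (edgeR quasi-likelihood, Benjamini-Hochberg adjusted p under 0.05 over all peaks), 23 of 456 (5.04%). The background was 0.882% called higher and 1.87% called lower of all 71318 peaks, 2.76% in either direction. The share was 0.37% among the other gene-end peaks and 5.58% among peaks away from gene ends that were lower in GFP low at every time. All 23 moved the same way in both GFP levels. The fit looks for a change shared by both levels, so this follows largely from the calling and is not separate support. Between 48 h and 24 h, 0 were called by edgeR and 0 by DESeq2, and 43 (9.43%) had an unadjusted edgeR p under 0.05, against 7.53% of all peaks.

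CAMP and IPO5 rose among the kept peaks. IPO5, an importin gene, had 3.29, 5.08 and 6.58 CPM in GFP low at 24, 48 and 72 h and 6.46, 11 and 10.9 CPM in GFP high, with the peak 699 bases upstream of its start. Its log2 change from 24 to 72 h was 0.87 ± 0.18 (SE, edgeR adjusted p = 0.0069). CAMP, whose values stand above, changed by 0.87 ± 0.20 (edgeR adjusted p = 0.0144). The other largest rises were at RNF186, a ubiquitin ligase gene, by 1.00 ± 0.26 (edgeR adjusted p = 0.0381), at KLHL18, by 0.76 ± 0.20, and at OR14A16, by 0.73 ± 0.17. SIGLEC10, an inhibitory lectin gene, rose by 0.56 ± 0.15 (edgeR adjusted p = 0.0443).

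BTLA and GRIN2B were among the kept peaks that fell. BTLA, an inhibitory receptor gene, had 4.77, 3.48 and 2.65 CPM in GFP low and 7.25, 4.88 and 3.81 CPM in GFP high, a change of -0.88 ± 0.21 (SE, edgeR adjusted p = 0.0185). GRIN2B, an NMDA receptor subunit gene, had 8.9, 6.6 and 5.04 CPM in GFP low and 15.1, 11.4 and 7.86 CPM in GFP high, a change of -0.88 ± 0.16 (edgeR adjusted p = 0.00246). In both genes the level was lowest at 72 h at either GFP level. URI1 changed by -1.11 ± 0.28, C16orf78 by -0.84 ± 0.21 and CD244, a SLAM family receptor gene, by -0.72 ± 0.19. IL2RA, the interleukin 2 receptor alpha chain gene, FCRL4 and TRAF3IP3 changed by -0.64 ± 0.18, -0.56 ± 0.15 and -0.53 ± 0.14, with edgeR adjusted p of 0.0484, 0.0486 and 0.0386.

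These calls rested on single libraries and on the tool. DESeq2 called 0 higher and 2 lower, GRIN2B and MSC, the second named after its values were seen. Without the GFP low 72 h library 0 were called in either direction, and without the GFP high 72 h library 5 were called higher and 0 lower. Without the GFP high 24 h library 32 were called higher and 12 lower, and without the GFP low 24 h library 8 higher and 21 lower. Without either 48 h library in turn 20 were called higher. The RNF186 change was 0.60 without the GFP low 24 h library, the CAMP change 0.55 without the GFP low 72 h library and the URI1 change -0.73 without the V2 columns. The time labels rest on reading D1, D2 and D3 in the headers as 24, 48 and 72 h.

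**Figure D5:**
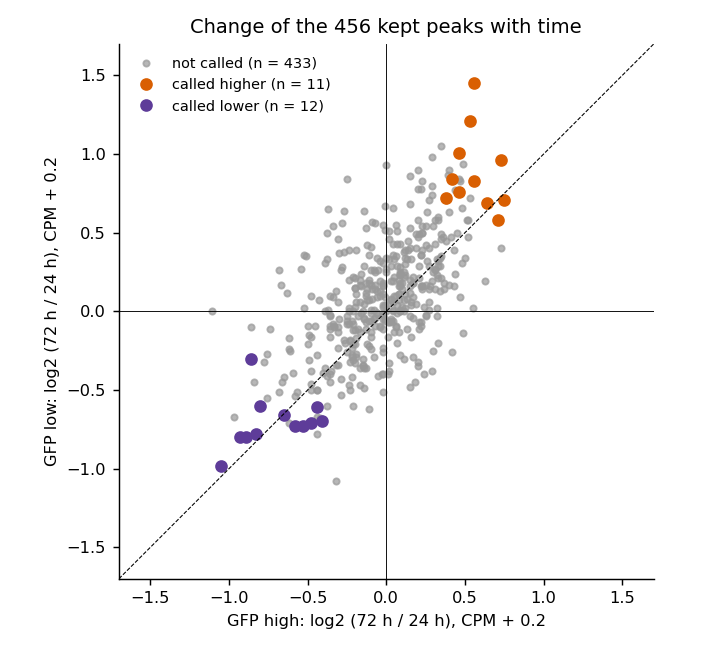
Log2 ratio of CPM (0.2 added) at 72 h to 24 h in GFP low (vertical) and GFP high (horizontal) for each of the 456 kept peaks, with 1 library per GFP level and time. Called peaks (11 higher, 12 lower) lie in the quadrants where both levels moved the same way, which a fit over both levels favours. More points lie above the dashed line of equal change than below it. The rule used the GFP difference at both times, so this split is not independent of it.

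Within GFP levels, each with 1 library per time and no test, 272 kept peaks (59.6%) were higher at 72 h than at 24 h in GFP low and 218 (47.8%) in GFP high. Among the other gene-end peaks the shares were 45.6% in GFP low and 64% in GFP high. The log2 ratio of GFP low to GFP high was higher at 72 h than at 24 h in 293 kept peaks (64.3%), against 35.3% of the other gene-end peaks and 50.8% of all peaks. It was higher in 68.2% of the peaks away from gene ends that were lower in GFP low at every time. The rule used the GFP differences at both times, so these shares are not independent of how the sets were chosen. From 24 to 72 h the median difference moved toward 0 in both sets, from -0.66 to -0.56 in kept and from 0.23 to 0.15 in other gene-end peaks. CD28 is an example of a higher ratio at 72 h, with log2 differences of -1.03, -0.60 and -0.45 at 24, 48 and 72 h. GPR174 went the other way, with -0.61, -0.98 and -1.37.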

How the data were processed

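The deposited table holds raw read counts per peak (whole numbers, not normalised) for 18 columns and 71318 peaks of 501 bases on hg38. The submitters' processing notes name FastQC, BWA, deepTools and R 4.2.1; how peaks were called, duplicates treated or reads shifted for the transposase is not stated there, and each could change the counts. D1, D2 and D3 in the headers were read as 24, 48 and 72 h. The 3 columns of 1 GFP level and time differed by 1.78 to 1.81 times the counting variance, so they were summed to 1 library. The labels list 3 replicates of each group, and no label says which V number is which replicate or that V columns are 1 library, so the sum rests on the counts alone. The p-values for time measure the spread left in the summed libraries after a shared change with time and a constant GFP difference are fitted. That spread mixes noise with any GFP difference that changes over time, and no replicate of a library enters it. No label states that cultures were separate, so the noise may be technical.

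Gene ends came from 20037 protein-coding genes of the RefSeq table on GRCh38.p14, and strand from its promoter table for 15843. Exons, introns and UTRs were not separated. Counts were scaled to CPM by library total, and 0.2 was added before log2. edgeR 4.0.16 in R 4.3.3 (TMM, quasi-likelihood, time plus GFP level, 2 residual and a median of 22.6 prior degrees of freedom, biological coefficient of variation 9.48%, 0 peaks removed by its filter) gave log2 differences, SEs and adjusted p for time. The printed interval (95%) multiplies the counting variance by the mean ratio of 1.80. The fit was checked on simulated data. Alternatives included DESeq2 1.42.0, other scalings, filters, distances and left-out libraries.

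Members and lists were chosen with earlier results of these data known. Named were the 20 lowest mean differences, the 8 highest levels, 4 peaks on each side of the limit, the 5 largest called rises and falls with time, up to 4 per list, genes with several kept peaks, and the 4 narrowest and 4 widest ranges; the text names some of these, and some results are not reported here. Further kept members of lists were named after their values were seen.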

Additional observations from a re-analysis of the deposited data

Results flagged for a closer look

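The median change from 24 to 72 h of the kept peaks lay on different sides of 0 in the GFP levels. The median log2 change was 0.09 in GFP low and -0.02 in GFP high, with 1 library per GFP level and time. The difference was not tested, and it is not independent of the rule, which used the GFP difference at both times. The GFP high median was -0.01 with TMM scaling or with 1 added to CPM and 0.00 with loess scaling, which leaves no difference in sign.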

How the results depend on the processing

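The number of peaks kept was 237 within 500 bases of a gene end, 823 within 2 kb and 162 at a limit of -0.5, against 456. It was 415 with TMM scaling, 332 with loess scaling (319 of them among the 456), 501 with V numbers read as time (387 of them among the 456) and 441, 419 and 440 without V0, V1 or V2 columns in turn (375, 370 and 365 of them among the 456). The median difference at 24 h was -0.59 with 1 added to CPM, and with loess scaling the medians were -0.53, -0.47 and -0.45 at 24, 48 and 72 h. With loess scaling 455 of the 456 stayed below 0 at every time, and with TMM all 456 did. The share inside genes was 35.9% within 500 bases. For 72 h minus 24 h, DESeq2 called 0 higher and 2 lower, 18 columns without a block 51 and 39, and 18 columns with V number as a replicate block 52 and 39; for 48 h minus 24 h both fits on 18 columns called 6 and 5, and DESeq2 0 and 0. Same-numbered V columns had correlations of -0.00458 to 0.0166 in their deviations, so same V numbers did not deviate together; the labels call the 3 samples of a group replicates, and summing their columns rests on the counts. Leaving out 1 library or V number gave 0 to 32 higher and 0 to 21 lower for 72 h, and 0 to 10 higher and 0 to 2 lower for 48 h, both highest counts for 48 h without the GFP high 24 h library. Loess offsets ended the URI1 call. Mean differences of named peaks moved by more than their spread over the times in 103 of 714 alternative values, with 0 changes of sign. The limit that chose these peaks left little room for such a change. Named changes with time lost their call in 43 of 159, with 0 changes of sign. Where not stated, the cause of a change was not tested. Depth limits single weak peaks, and 1 library per GFP level and time limits the tests.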
